A study of Bombyx mori with 8 samples.

Results

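The Z chromosome of the silkworm (*Bombyx mori*) is described here through the G-quadruplex (G4) peaks that lie on it. A G4 is a DNA fold in which runs of guanines stack on one another, and such runs are common near gene starts. The members are all peaks whose sequence is number 1 of the 28 long numbered sequences of the assembly, which corresponds to linkage group 1, the Z. They number 1701 of 55134 peaks in 4 deposited lists, with 279 of 6759 in brain replicate 1, 1030 of 33925 in brain replicate 2, 236 of 8556 in fat body replicate 1 and 156 of 5894 in fat body replicate 2. Nothing in the lists names the sequence as the Z, so that name rests on its number. The peaks were measured by CUT&Tag, in which an antibody brings a transposase to its target and the cut DNA is sequenced. The libraries came from wild-type larvae of strain P50 at the stage coded L5D3, were labelled with the G4 antibody fragment BG4 and comprised 2 of brain and 2 of fat body, the insect organ that stores fat and carries out much of the intermediary metabolism. The IgG, P0 brain and BmN cell line samples were not analysed here.

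Silkworm females are heterogametic, with 1 Z and a W, and males carry a pair of Z chromosomes. The Z bears Masc, the gene whose protein drives male development and which a small RNA from the W silences in females, and Masc is also needed for the dosage compensation that adjusts the expression of Z genes. The labels give no sex for the larvae, nor whether tissue was pooled, so the number of Z copies behind each library is not known. They also do not say whether replicates came from separate animals, and the spread between replicates may thus be technical. The peak names do not match the labels throughout. Those of both fat body lists carry 1H6, another G4 antibody, those of brain replicate 2 name no antibody, and those of fat body replicate 2 lack the stage text that the other 3 carry, a text that is itself not the one in the labels. Names in brain replicate 2, and in no other list, mention duplicate removal and a mapping quality of 20. Antibody and tissue therefore cannot be told apart in any comparison of the tissues. No genome of the build the lists use was available, so peaks are given by 1-based coordinates on sequence 1, with no gene, feature or base sequence.

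Peaks were sparser on the Z than on most autosomes in all 4 lists, and in 3 of them the Z had the lowest or next to lowest density. Sequence 1 spans 20.6 Mb up to its last peak, 4.64% of the 28 long sequences, and ranks second of them in length. It held 4.13% of the peaks of brain replicate 1 (95% Wilson interval 3.68% to 4.63%), 3.04% of brain replicate 2 (2.86% to 3.22%), 2.76% of fat body replicate 1 (2.43% to 3.13%) and 2.65% of fat body replicate 2 (2.27% to 3.09%). These intervals cover counting error only. The density on the Z was 13.5 peaks per Mb in brain replicate 1, against a median of 15.1 over sequences 2 to 28, each taken as 1 unit. In brain replicate 2 it was 49.97 against a median of 77.6. In fat body replicates 1 and 2 it was 11.4 against 18.7 and 7.57 against 13.2.

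The Z stood outside the range of the other 27 sequences in 2 lists. In brain replicate 2 the next lowest density was 66.9 peaks per Mb, on sequence 11, and the ratio of the Z to the median was 0.644. In fat body replicate 2 the next lowest was 8.14, on sequence 28, and the ratio was 0.573; without the 2 Mb at each end it was 0.602 and the Z was no longer the lowest. In fat body replicate 1 sequence 28 alone was lower than the Z, at 10.6 against 11.4, and the ratio was 0.612. This list had the Z below every other sequence at a −log10 q of at least 20 and at equal list lengths. It was also below the 8 sequences nearest in span, but these leave out sequence 28, so that rank follows from the choice. In brain replicate 1 the ratio was 0.895 and 5 sequences (28, 22, 6, 7 and 26) had lower densities. Sequence 28 is short, at 10.6 Mb. Over the 28 sequences density fell with span in brain replicate 2 (Spearman correlation -0.67), where the long Z would thus rank low. In brain replicate 1 and fat body replicates 1 and 2 that correlation was 0.22, 0.32 and 0.31. Against the 8 sequences nearest to it in span, the Z had ratios of 0.820 and 0.714 in the brain lists, and of 0.513 and 0.484 in fat body.

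**Figure D1:**
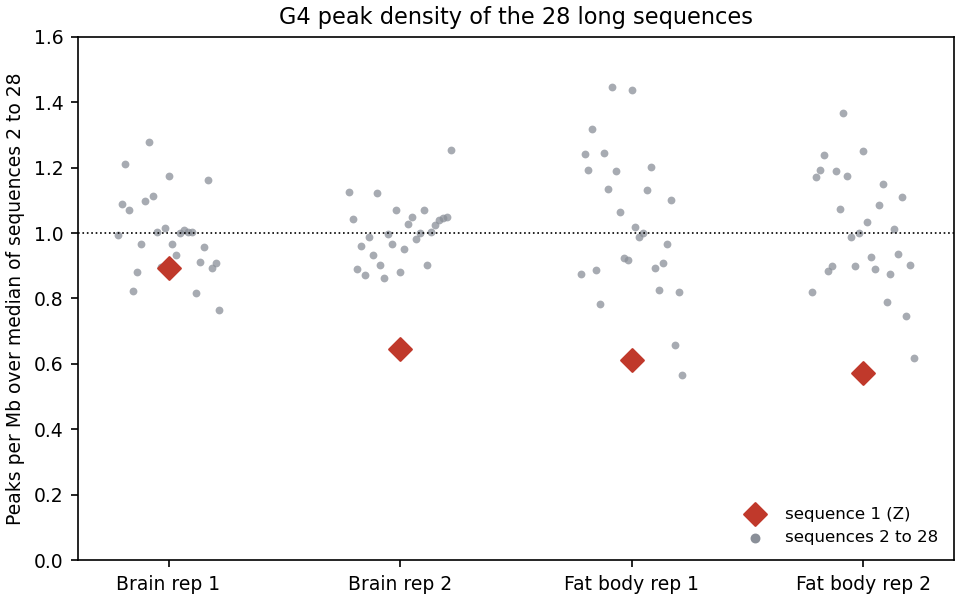
Peaks per Mb of each of the 28 long sequences in each list, divided by the median of sequences 2 to 28 (linear axis from 0). The Z (red diamond) sits at 0.895 in brain replicate 1, within the grey points, and at 0.644, 0.612 and 0.573 in the other lists, below all or all but 1 of them.

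The brain replicates differed from each other by more than the tissue means did. On the log2 scale the density ratio in brain was -0.16 and -0.63, a mean of -0.40 ± 0.34 (SD, n = 2), and that in fat body was -0.71 and -0.80, a mean of -0.76 ± 0.07 (SD, n = 2). The tissue means differed by 0.36 and the brain replicates by 0.47. Both brain values lay above both fat body values, which gives a two-sided exact permutation p of 0.333, the smallest that 2 against 2 libraries can reach. Without the 2 Mb at each end, and by covered kb per Mb, the tissues overlapped and p was 0.667. Without brain replicate 1 the difference fell to 0.12, and without brain replicate 2 it was 0.60. Brain replicate 1 was the list that stood apart. Its density relative to fat body replicates 1 and 2, centred on the median of the other sequences, was 0.59 and 0.65 higher on the Z (log2), above the highest other sequence in each case (0.49 and 0.35). Relative to brain replicate 2 it was 0.54 higher, and 1 other sequence reached 0.57.

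The shortfall was present among strong and weak peaks. Each list was split into 4 equal bins by the authors' −log10 q. In brain replicate 2 the ratio of the Z to the median of the other sequences was 0.650, 0.607, 0.731 and 0.630 from the weakest to the strongest bin, the lowest of the 28 sequences each time. In fat body replicate 2 the bins gave 0.597, 0.566, 0.586 and 0.532. In fat body replicate 1 they gave 0.614, 0.728, 0.637 and 0.426, so that the strongest bin, with 41 Z peaks, had the lowest ratio. In brain replicate 1 they gave 0.829, 0.755, 1.11 and 0.921, with the third bin above 1.

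The Z peaks were lower in 3 lists but stood on a lower background. Summit height is given as the pileup, the number of fragments stacked at the summit, and background as the local level in fragments against which the peak caller measured the fold; both were worked out from the deposited values. The median pileup on the Z was 57 fragments in brain replicate 2 against a median of 66 over the other sequences. It was 48.5 against 57 in fat body replicate 1 and 37 against 43 in fat body replicate 2. In these 3 lists it was the lowest of the 28 sequences, at 0.864, 0.851 and 0.860 of their median. Among peaks of no other list the fat body ratios were 0.940 and 1.06 and the Z was no longer the lowest there, nor was it in fat body replicate 1 at a −log10 q of at least 20. In brain replicate 1 it was 50 against 49. The median background at Z peaks was 8.31 fragments against 9.25 in brain replicate 1, 8.87 against 12.2 in brain replicate 2, 8.10 against 9.94 in fat body replicate 1 and 4.01 against 5.47 in fat body replicate 2. The ratios were 0.898, 0.724, 0.815 and 0.735, the lowest of the 28 sequences in brain replicate 2 and fat body replicate 2.

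Fold enrichment, the ratio of summit to background, was thus no lower on the Z. Its median was 5.34 against 5.13 in brain replicate 1, 5.77 against 5.15 in brain replicate 2, 5.06 against 5.01 in fat body replicate 1 and 7.42 against 6.78 in fat body replicate 2. In fat body replicate 2 the Z had the highest lower quartile of fold of the 28 sequences, 6.01 against 5.40. The lists hold only peaks that passed the caller's cut, and at a lower background a peak needs a higher fold to pass. The part of that cut in these folds was not tested. A background at the lowest value of the list, its floor, was found at 27.1% of Z peaks in fat body replicate 1 and 29.5% in replicate 2, where the medians of the other sequences were 14.1% and 13.6% and the highest were 21.3% and 19.4%. In brain replicates 1 and 2 the floor was reached at 0% and 0.68% of Z peaks. The medians of the other sequences there were 0% and 0.48%, and the highest were 1.33% and 2.70%. Median widths differed little, at 493 against 495 bp, 364.5 against 396 bp, 518 against 517 bp and 503 against 513 bp in the same order of lists. In brain replicate 2 and both fat body lists low background and low height moved with low density, and the part of copy number or of read depth on the Z in these values was not tested.

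Regions found in every list allow heights to be compared at places of the same kind. The 44 Z regions called in all 4 lists had median pileups of 57.5 and 72.0 fragments in brain replicates 1 and 2, and of 56.0 and 49.5 fragments in those of fat body. The medians of the other sequences were 74.0, 79.5, 89.0 and 71.0. The ratios were 0.777, 0.906, 0.629 and 0.697, the lowest of the 28 sequences in all but brain replicate 2, where 6 sequences were lower. Background at these regions was 0.809, 0.775, 0.572 and 0.637 of the other sequences, the lowest of the 28 in each list. In brain replicate 1, therefore, the shared Z regions were low although its Z peaks as a whole were not. Median folds were close to those of the other sequences, at 6.44 against 6.31, 6.59 against 5.98, 6.91 against 7.18 and 9.39 against 8.99.

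**Figure D2:**
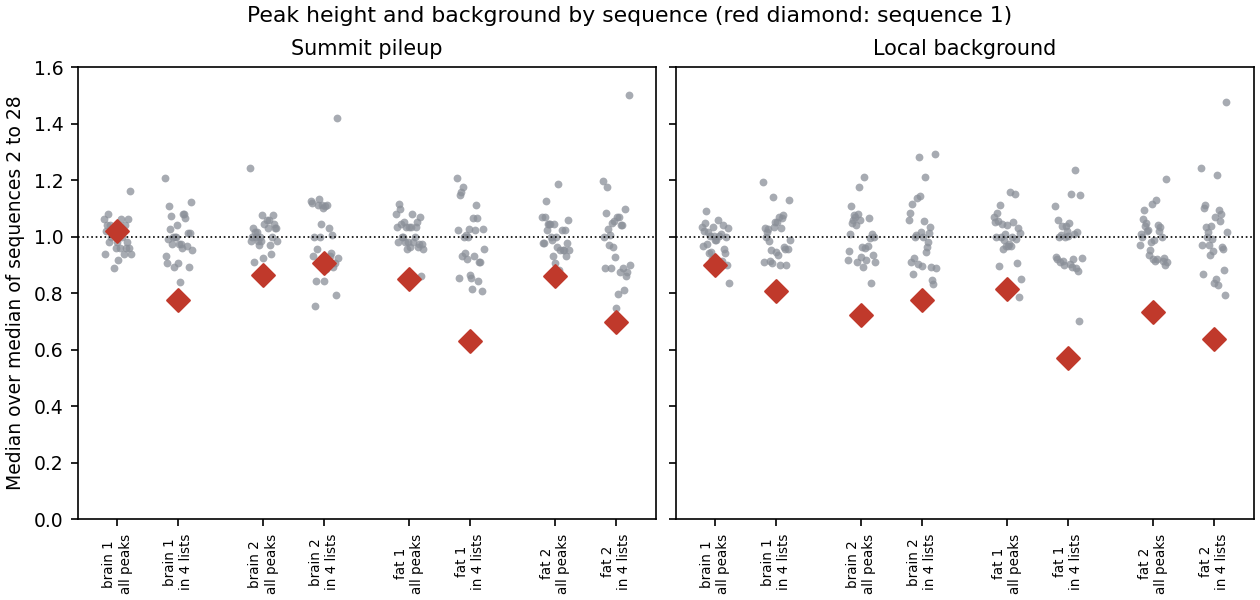
Median summit pileup (left) and median local background (right) of each sequence, divided by the median of sequences 2 to 28, for all peaks and for regions called in all 4 lists (linear axis from 0). Red diamonds are the Z; among regions in all 4 lists the pileup ratio runs from 0.629 to 0.906 and the background ratio from 0.572 to 0.809.

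For brain replicate 1, the share of peaks that fat body also called was the lowest of the 28 sequences on the Z. An overlap of 1 bp or more made a peak shared. Of the brain replicate 1 peaks on the Z, 70 of 279 (25.1%, 95% Wilson interval 20.4% to 30.5%) overlapped fat body replicate 1, where the whole list gave 41.7% and the lowest other sequence 33.3%. Overlap with fat body replicate 2 was 88 of 279 (31.5%, 26.4% to 37.2%), where the whole list gave 42.9% and the lowest other sequence 34.9%. Overlap with brain replicate 2 was 175 of 279 (62.7%), near the 60.2% of the whole list. The fat body densities on the Z, at 0.612 and 0.573 of the median, leave fewer peaks to overlap, and the part of that in these shares was not tested.

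The other lists gave smaller departures. Brain replicate 2 peaks on the Z were overlapped by brain replicate 1 in 185 of 1030 cases (18.0%, 15.7% to 20.4%), where the whole list gave 12.5% and 1 other sequence was higher. By fat body replicates 1 and 2 they were overlapped in 7.96% and 7.77% of cases, against 8.77% and 7.78% of the whole list. Fat body replicate 1 peaks on the Z were overlapped by fat body replicate 2 in 101 of 236 cases (42.8%, 36.6% to 49.2%), the lowest of the 28 sequences, where the whole list gave 48.7%. They were overlapped by the brain lists in 29.7% and 33.5% of cases, against 33.2% and 33.8%. For fat body replicate 2 the shares were 101 of 156 (64.7%) with fat body replicate 1, 56.4% with brain replicate 1 and 50% with brain replicate 2, where the whole list gave 70.5%, 49.5% and 43.2%. The intervals of these last 3 shares, 57.0% to 71.8%, 48.6% to 63.9% and 42.2% to 57.8%, include the whole-list values. So does that of fat body replicate 1 by fat body replicate 2. For fat body replicate 2, 1 other sequence had a higher share with brain replicate 1. With brain replicate 2 no other sequence was higher, though sequence 27 had the same share. That rank was lost in several alternatives, among them equal list lengths.

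**Figure D3:**
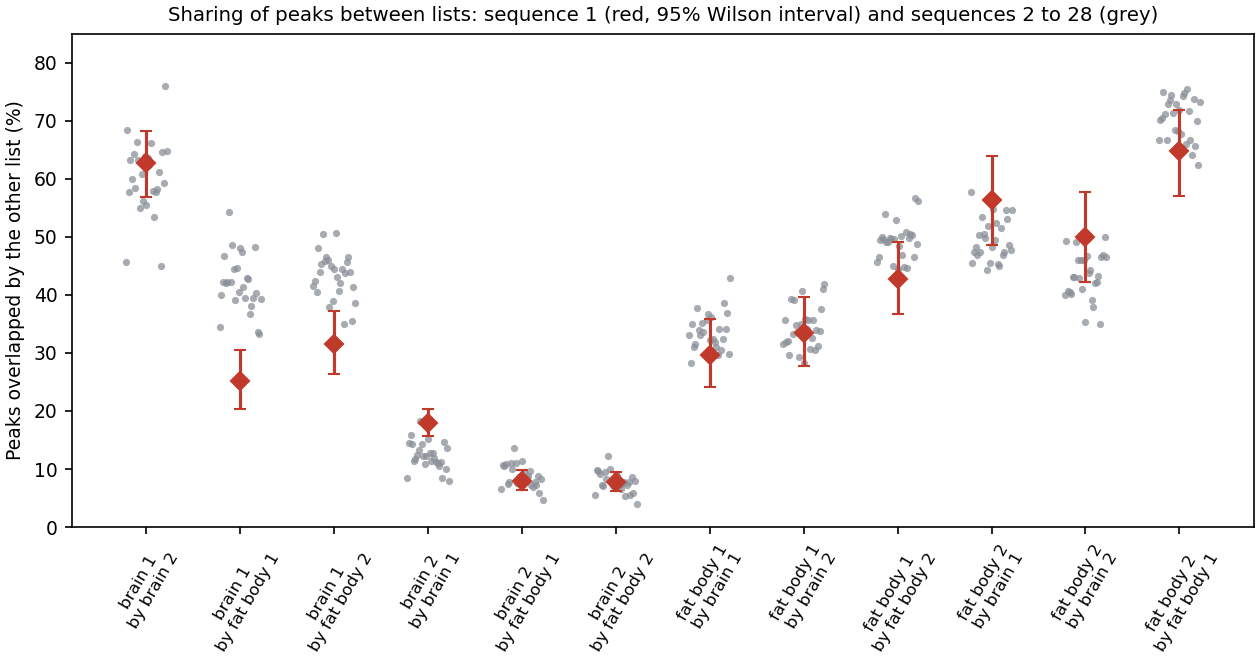
Share of the peaks of each list overlapped by each other list, in percent, on the Z (red, with 95% Wilson interval) and on sequences 2 to 28 (grey). The Z lies below every grey point for brain replicate 1 by either fat body list, at 25.1% and 31.5%.

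Merging the lists gave 1280 regions on the Z of 41891 in all. On the Z 1007 regions were called in a single list, 809 of them in brain replicate 2, where 80.9% of all regions were called in 1 list. Regions in all 4 lists numbered 44, or 3.44% of Z regions (2.57% to 4.58%), near the 3.68% of all regions. The difference from the other sequences was -0.28 percentage points. Without brain replicate 2, the share called in every remaining list, of the regions of those lists, differed by -5.01, and the Z had the lowest share. Per Mb the regions in all 4 lists were fewer, 2.13 against a median of 3.59, the lowest of the 28 sequences. Regions of both fat body lists and no brain list numbered 28 (2.19%, 1.52% to 3.14%), against 3.02% of all regions. Per Mb they came to 1.36 against 2.65, again the lowest of the 28.

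Regions of both brain lists and no fat body list ran the other way. They numbered 111 on the Z, 8.67% of its regions (7.25% to 10.3%), against 4.79% of all regions, and the Z had the highest share of the 28 sequences. Its excess over the other sequences, 3.98 percentage points, was 1.21 at equal list lengths, where the Z was no longer the highest. With a brain list left out, the class needs only the other brain list, and the share is of the regions that remain. The excess of that wider class was 1.67 without brain replicate 1, where the Z was again not the highest, and 14.0 without brain replicate 2. Per Mb the 111 regions came to 5.38 against a median of 4.26, a ratio of 1.26, and 5 sequences were denser. Of the 175 Z regions that both brain lists called, 63.4% (56.1% to 70.2%) had no fat body peak, where the other sequences ranged from 36.3% to 58.2%. At equal list lengths, with 18 such Z regions, the Z was no longer above every other sequence. Regions of brain replicate 1 alone were also not sparse on the Z, at 69 regions and 1.1 times the median density, whereas those of brain replicate 2 alone were at 0.603 and those of fat body replicates 1 and 2 alone at 0.705 and 0.470. At the 111 brain-restricted Z regions the median pileup was 57 fragments in brain replicate 1, against 45.5 over the other sequences and at most 53.5. It was 88 against 85 in brain replicate 2. The pileups of brain replicate 1 were thus higher on the Z in brain-restricted regions and lower on the Z in regions of all 4 lists. Both classes are set by fat body calls, whose densities on the Z were 0.612 and 0.573 of the median. Fewer fat body peaks leave more brain regions without one. The part of that in these heights and in the 63.4% was not tested.

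**Figure D4:**
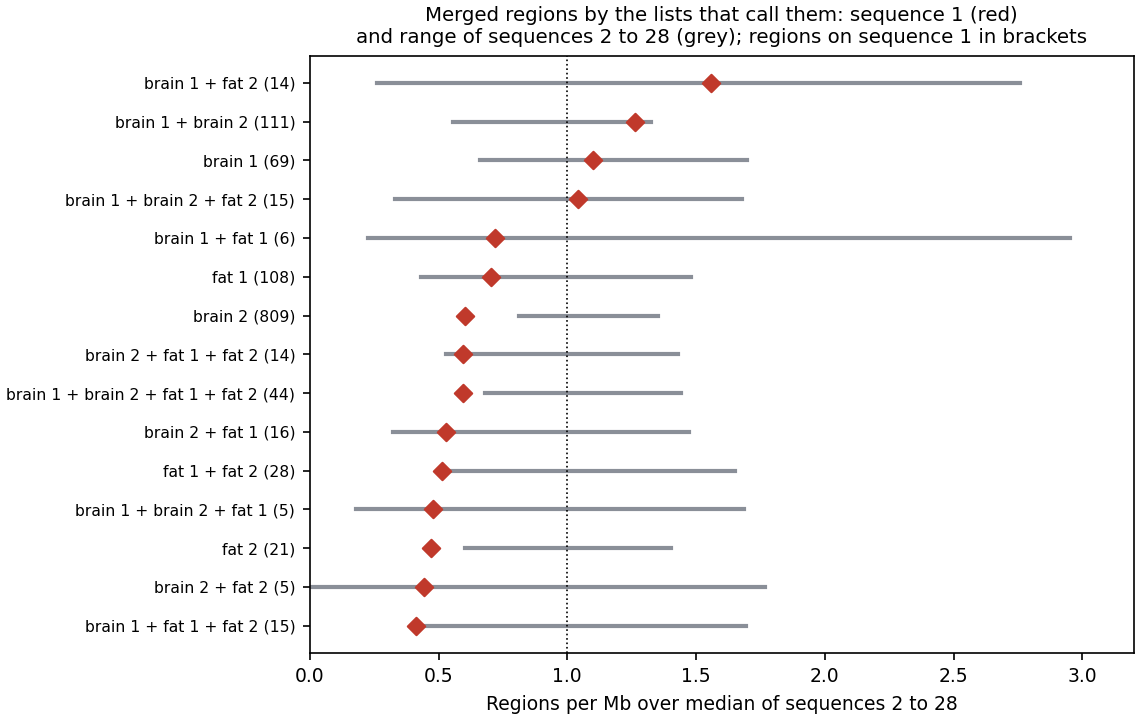
Regions per Mb on the Z (red) divided by the median of sequences 2 to 28, for each set of lists that calls a region, with the range of those sequences (grey line) and the number of Z regions in brackets. Regions of both brain lists alone sit at 1.26 and regions of all 4 lists at 0.595, below the grey range.

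The named regions on the Z were those with the highest smallest fold in their class. The first region of all 4 lists lies at 10136620 to 10137611, near the middle of the sequence. In brain its folds were 12.2 and 12.8, and in fat body 11.97 and 16.0, with pileups of 308, 168, 113 and 223 fragments. The next, at 13127822 to 13128380, had brain folds of 13.3 and 10.9 and fat body folds of 10.3 and 18.5 over low backgrounds of 3.28, 1.85, 5.81 and 3.32 fragments, so its pileups were 56, 30, 69 and 79 fragments. It held the highest Z peak by fold of brain replicate 1 and of fat body replicate 2. The remaining 3 lie at 11387236 to 11388063, 5918524 to 5919147 and 14337554 to 14338224, with smallest folds of 8.67, 7.77 and 7.57. All 5 thus had folds above 7 in each of the libraries.

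The highest Z peak of brain replicate 2 by fold was in no other list, like most Z peaks of that list. It lies at 7756920 to 7758319, with a fold of 45.6, a pileup of 2170 fragments and a width of 1400 bp. It ranks first by fold in the whole list of 33925 peaks, but the highest fold on another sequence was 45.5. Each of the other sequences reached at least 33.4. Of the 1030 Z peaks of brain replicate 2, 809 (78.5%) were in no other list, against a median of 83.5% over the other sequences. The next Z peaks of that list, at 9298540 to 9299453 and 42657 to 43827, had folds of 35.1 and 31.9 and were likewise in no other list. These 3 peaks were picked for their fold in the list and described after their values were seen.

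The first brain-restricted region lies at 9520410 to 9521096, with folds of 9.81 and 11.9 and pileups of 57 and 132 fragments, 73209 bp from the nearest fat body peak. The next, at 16738370 to 16739025, had folds of 9.11 and 9.46 and lay 18168 bp from one. The region at 3535521 to 3535990 had folds of 8.71 and 10.9 and was the farthest of the 5 from a fat body peak, at 126236 bp. Those at 310968 to 311336 and 8632684 to 8633340 had smaller folds of 8.32 and 8.23 and lay 37727 and 12338 bp from one. None of the 5 thus lay within 12 kb of a fat body peak. They were chosen for having no fat body peak. Fat body peaks are also sparse on the Z, with median distances between neighbouring summits of 28.6 and 67.6 kb in replicates 1 and 2. How far other Z positions lie from a fat body peak was not measured.

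The first fat-body-restricted region lies at 18743772 to 18744261, with folds of 11.9 and 13.3 and pileups of 80 and 75 fragments, and its nearest brain peak is 3956 bp away. The next, at 14244894 to 14245536, had folds of 9.63 and 17.0 and pileups of 177 and 140 fragments, 4352 bp from a brain peak. The other 3, at 15460161 to 15460710, 9377283 to 9378178 and 4030522 to 4031204, had smaller folds of 9.43, 9.15 and 8.33. Each of the 5 had its nearest brain peak in the long list of brain replicate 2, at 615 to 14112 bp, while the nearest peak of brain replicate 1 was 20384 to 155816 bp away.

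In full 1-Mb windows the counts ran from 6 to 21 in brain replicate 1 (median 14), from 29 to 76 in brain replicate 2 (median 53), from 1 to 21 in fat body replicate 1 (median 11) and from 2 to 16 in fat body replicate 2 (median 7). The windows richest in regions of 2 or more lists began at 10000001, with 21, and at 3000001 and 11000001, with 20 each. The pair of windows from 10000001 to 12000000 makes up 9.70% of the span and held 14 of the 44 regions of all 4 lists (31.8%). It was chosen for regions of 2 or more lists, which include these, so that share follows in part from the choice. It held 17.4% and 19.2% of the Z peaks of fat body replicates 1 and 2, 14.3% of those of brain replicate 1 and 8.25% of those of brain replicate 2. The window from 3000001 differed, with 13 brain-restricted regions and 1 region of all 4 lists.

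Across 20 equal bins of the span, the Z fell below the median of the other sequences in 20 bins for fat body replicate 2, in 19 for brain replicate 2 and in 17 for fat body replicate 1, but in 11 for brain replicate 1. The low density of the first 3 lists was therefore spread over the sequence. Within 2 Mb of either end, the Z had 11.0 and 51.8 brain peaks per Mb and 7.5 and 6.0 fat body peaks per Mb in replicates 1 and 2. Its interior held 14.1 and 49.5 brain peaks per Mb and 12.4 and 7.94 fat body peaks per Mb. The end density was 0.605 and 0.755 of the interior in the fat body lists, where the medians of the other sequences were 0.963 and 0.945 and 2 and 5 sequences were lower. With 1 Mb at each end the Z values were 0.909 and 1.14. The ends were not alike: the first 1 Mb held 7 and 3 fat body peaks and the last 1 Mb 14 and 14, while over 2 Mb the densities were 6 and 3.5 per Mb at the start and 9 and 8.5 at the far end.

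**Figure D5:**
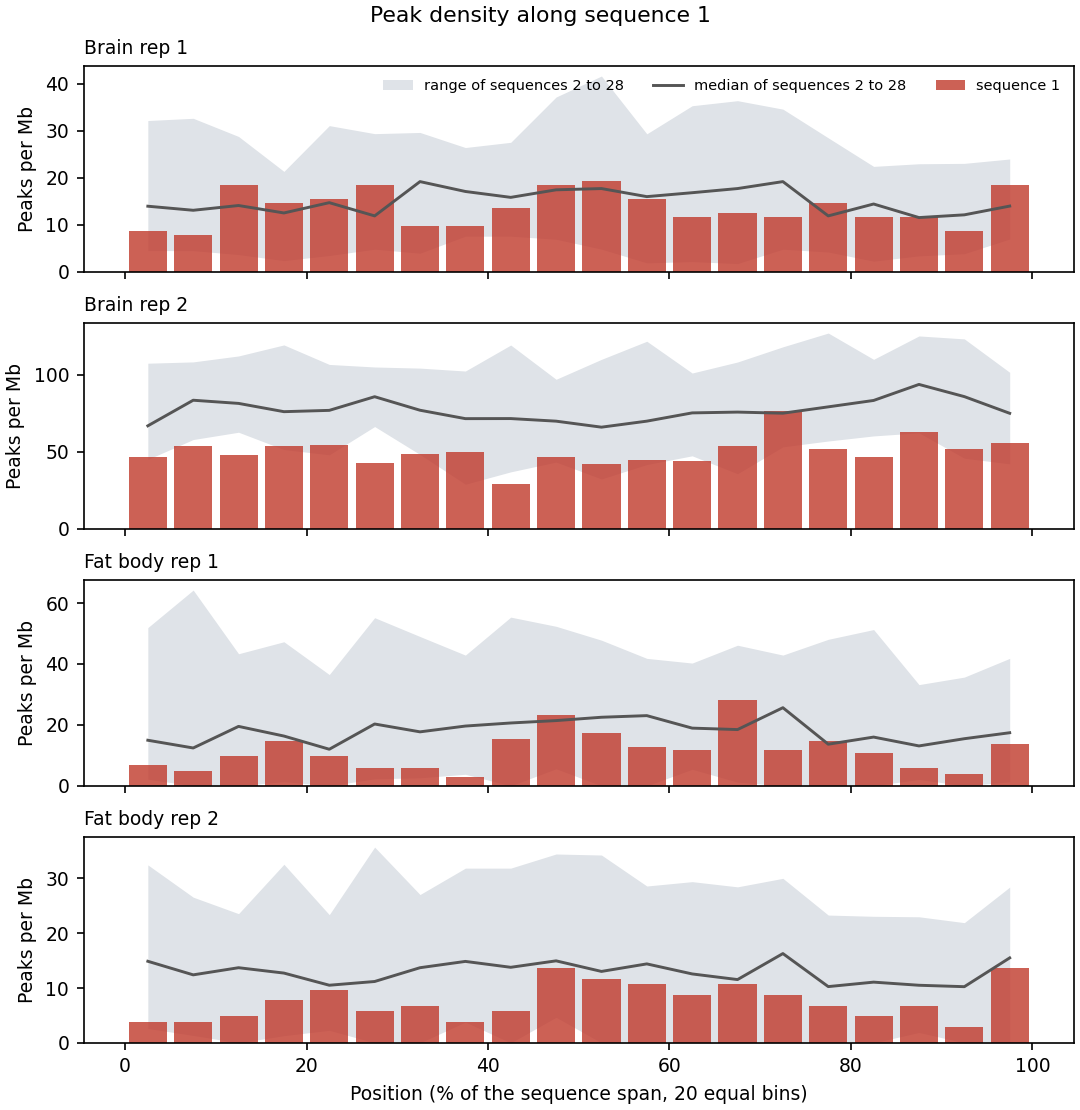
Peaks per Mb in 20 equal bins along the Z (red bars) with the median (line) and range (grey) of sequences 2 to 28, per list; position is in percent of the span. The bars lie under the line in 19 of 20 bins for brain replicate 2 and in all 20 for fat body replicate 2.

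In the fat body lists the window counts of the Z varied less than those of any other sequence. The variance of 100-kb window counts over their mean was 1.86 against 2.80 in fat body replicate 1 and 1.19 against 1.69 in replicate 2, the lowest of the 28 sequences in both, and was 1.17 against 1.36 in brain replicate 1 and 1.20 against 1.21 in brain replicate 2. The density on the Z was also low in the fat body lists, and its part in this ratio was not tested. Windows of 100 kb with no peak made up 48.8% and 50.7% of the Z in the fat body lists, against medians of 39.3% and 38.1%, and 28.5% in brain replicate 1 against 28.5%. Brain replicate 2 left 1.45% of Z windows empty, and no other sequence had more than 1.15%. The median distance between neighbouring summits was 67.6 kb against 35.5 kb in fat body replicate 2 and 14.0 kb against 9.29 kb in brain replicate 2, the widest of the 28 in both.

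The longest stretch without a fat body peak on the Z was not unusual. It runs from 7392511 to 8034944, 642 kb long, where the median of the longest stretch on the other sequences was 776 kb. Brain replicate 1 had 6 peaks and brain replicate 2 had 29 within it, 6 regions there were brain-restricted, and the highest peak of brain replicate 2 lies in it. The next ones, of 507 kb from 11940453 and 495 kb from 1486376, held 2 and 5 brain-restricted regions. Because such stretches were chosen for their lack of fat body peaks, the count of brain-restricted regions in them follows in part from that choice.

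In the 3 pairs without brain replicate 2, peak counts of the lists followed one another less closely along the Z than along most sequences. Over 42 windows of 500 kb, the Spearman correlation of peak counts on the Z was 0.60 between the fat body lists, against a median of 0.81 over the other sequences. Between brain replicate 1 and fat body replicates 1 and 2 it was 0.29 and 0.35, against 0.57 and 0.67, the latter the lowest of the 28. With brain replicate 2 it was -0.07, -0.24 and -0.19 for brain replicate 1 and fat body replicates 1 and 2, and -0.08, -0.12 and -0.15 over the other sequences. These values describe windows that share a library and its depth. The lower density of fat body peaks on the Z leaves fewer peaks per window, and its part in these correlations was not tested.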

How the data were processed

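Bowtie2, Trim Galore, Picard, MACS2 (version 2.1.0) and deepTools (version 3.3.0) are named in the submitters' processing notes, without order or settings. The build of the genome was not named in the sources used here, and the lists mark it only through their sequence names. The authors deposited 1 narrowPeak list per library, with no pooling, that holds a score (10 times −log10 q rounded down), a fold (ratio) of summit over local background, and −log10 p and −log10 q. The lowest −log10 q was 5.01 to 5.21. Read depth is unknown; the median summit pileup was 43 to 66 fragments.

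Pileup and background were worked out from the authors' fold, taken as (pileup + 1)/(background + 1), and −log10 p, taken as a Poisson upper tail; pileups came out whole within 0.02 in 100% of peaks of each list. Spans end at the last peak of any list. The Z was compared with sequences 2 to 28 by rank and range, with no p, and the tissues by an exact permutation over 4 libraries. Overlaps of 1 bp or more counted as shared, and overlapping or touching peaks were merged. Named regions are the 5 with the highest smallest fold in each class, the 3 richest 1-Mb windows and the 3 longest stretches without a fat body peak. Python 3.11.15, numpy 2.4.6, pandas 2.3.3 and scipy 1.17.1 were used, and the scripts were tested on simulated lists. The members, rules and measures were chosen with earlier results of these data known. Alternatives covered −log10 q of at least 20, equal list lengths, each library left out, and other denominators, overlaps, merging distances and comparison sequences.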

Additional observations from a re-analysis of the deposited data

How the results depend on the processing

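The density ratio of the Z stayed below 1 in 39 of 40 alternative values; the exception was brain replicate 1 at a −log10 q of at least 20, at 1.00. The 40 include 3 values per list with another library left out, which cannot change that list's own peaks. Equal lengths likewise leave fat body replicate 2, the shortest list, unchanged, so the count overstates how far the ratios were tried. For fat body replicate 1 it was 0.533 at −log10 q of at least 20, 0.566 at equal list lengths, 0.513 against the 8 sequences nearest in span, 0.584 against pooled density and 0.649 without the 2 Mb at each end. For fat body replicate 2 it was 0.484 against the 8 nearest and 0.602 without the ends. The tissue difference kept its sign in all 12 alternatives, from 0.12 to 0.60 with 1 library left out. The replicate block is among the 12, and its difference equals the main one by arithmetic, so its sign could not change. Replicate numbers are shared by the tissues but no label says they mark a pairing. Over the 28 sequences, deviations of the log2 relative density from the tissue mean correlated between same-numbered lists (r = 0.47, Spearman 0.46). The source of that correlation was not tested. With the replicate block the tissue difference was 0.36 (same-numbered differences 0.55 and 0.17, exact sign-flip p = 0.5, the smallest it can give).

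At a −log10 q of at least 20 the overlap share on the Z minus that of the other sequences was -25.8 and -20.1 percentage points for brain replicate 1 by fat body replicates 1 and 2, against -17.5 and -12.1, and -13.8 against -5.88 for fat body replicate 2 by 1. At equal list lengths that of fat body replicate 2 by brain replicate 2 turned from 7.01 to -0.22. The share of brain-restricted regions, 3.98 points higher on the Z, was 1.21 higher at equal list lengths, with 18 such regions, and 1.67 to 14.0 higher with 1 library left out, lowest without brain replicate 1. That of fat-body-restricted regions, at -0.89, was -3.52 at equal lengths and -4.27 to -0.48 with 1 library left out. That of regions in all lists, at -0.28, ran from -5.01 (without brain replicate 2) to 0.22. With 1 library left out, each class is defined on the lists that remain, so its members and the total differ from the main ones. The share of brain-reproduced regions with no fat body peak, added after the data were seen, was 15.1 points higher on the Z and 12.2 to 20.5 higher in its 6 alternatives.

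The end over interior density of the Z, relative to the other sequences, was 0.931 in brain replicate 1, and became 1.16 at a −log10 q of at least 20 and 1.11 with ends of 1 Mb. In fat body replicate 1 it went from 0.628 to 0.756 at equal lengths and 1.02 with ends of 1 Mb, and in fat body replicate 2 from 0.799 to 1.19 with ends of 1 Mb. Relative widths at −log10 q of at least 20 were 0.823, 0.899 and 0.996 in brain replicate 2 and fat body replicates 1 and 2; that of fat body replicate 1 was 0.980 at equal lengths, and among peaks of no other list those of the fat body lists were 1.14 and 1.1. The relative pileup of fat body replicate 1 was 0.843 at −log10 q of at least 20, 0.806 at equal lengths and 0.940 among peaks of no other list; that of fat body replicate 2 was 0.825 at −log10 q of at least 20 and turned to 1.06 among peaks of no other list, where its relative fold was 1.18. For these changes the cause was not tested.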
